A study of Mus musculus with 64 samples.

Results

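RNA levels were compared between the hippocampus and the frontal cortex of adult wild-type (WT) C57BL/6N mice at postnatal weeks (PWK) 7, 14 and 28. The 24 libraries used here, of 64 in the series, are all bulk tissue from the WT littermates of Cyfip2+/R87C knock-in (KI) mice, which carry an Arg87Cys change in Cyfip2, and 4 mice gave 4 hippocampal and 4 cortical libraries at each age. No mouse in these 24 libraries carries the knock-in allele, the labels name no treatment, and the tissue of both hemispheres was taken in the afternoon. Members are the genes whose region difference passed the test in the same direction at each of the 3 ages, and 4642 of the 18419 genes tested met this rule. Hippocampal and cortical libraries were set against each other within an age by equal replicate number. Values are normalized counts as the authors scaled them, differences are hippocampus minus cortex on the scale of log2(value + 1), and a positive difference means a higher level in hippocampus.

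The hippocampus is an evolutionarily older type of cortex, in which dentate granule cells send mossy fibres to CA3 pyramidal neurons and CA3 neurons send Schaffer collaterals to CA1. The frontal neocortex is built of layers, with neurons that project within the cortex in the upper layers and neurons that project to the thalamus, brainstem and striatum in the deep layers. Both regions arise from the dorsal telencephalon, and their excitatory neurons share much of their machinery while differing in transcription factors, ion channels, receptors and adhesion molecules. In bulk tissue a higher level in a region can come from more cells of a type or from more RNA per cell, and these cannot be told apart.

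The labelled regions were first checked against markers. The summed level of 9 dentate granule cell markers was 13175 to 19831 (median 14185) in hippocampus and 4790.1 to 5831 (median 5124) in cortex, and that of 8 upper-layer markers was 9983 to 11578 (median 10398) and 19459 to 23362 (median 21726), so that neither pair of ranges overlapped. Sums of CA2 and CA3 markers did not overlap either, at 7728 to 10199.5 in hippocampus and 4894 to 6277 in cortex. Those of CA1 markers (15015 to 19567 and 12987 to 16466) and deep-layer markers (12840 to 16103.5 and 14267 to 17396) did overlap. The first principal component of 12701 genes took 63.2% of the variance and separated all hippocampal from all cortical libraries, with hippocampal PWK 7 replicate 3 closest to cortex. Library totals lay between 29865459 and 32039228, but scaling makes them alike and the depth is unknown, so that precision rests on the spread between libraries. Other tissue varied between libraries. Choroid plexus markers, which include the transthyretin gene Ttr, ranged from 1771 to 132702 in hippocampus and from 274 to 22979 in cortex. In 3 cortical libraries (PWK 14 replicate 3 and PWK 28 replicates 3 and 4), markers of olfactory bulb projection neurons were high, with Tbx21 at 28.8 to 103 against 0.913 to 8.47 in the other 9. Without these 3 pairs, 3425 genes were kept. The PWK 28 cortical libraries left, replicates 1 and 2, had the highest sums of striatal markers, 16838 and 15125. The other cortical libraries were at 7629 to 12395. With the choroid plexus level as a covariate 2784 genes were kept.

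**Figure D1:**
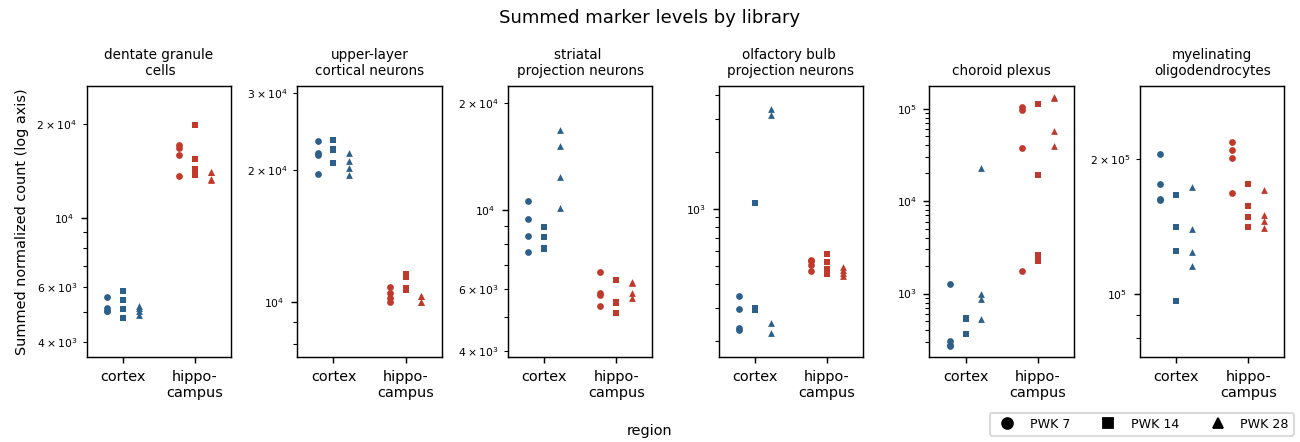
Summed normalized counts of 6 marker lists in each library (log axis), with cortex in blue and hippocampus in red and the symbol giving the postnatal week. Dentate and upper-layer markers separate the regions, choroid plexus markers spread most within hippocampus, and the 3 cortical libraries with olfactory bulb markers stand above the other 9.

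Region differences were widespread, and under the authors' scaling about as many genes were higher in each region. At PWK 7, limma's test called 7598 genes (41.3% of those tested), 3789 higher in hippocampus (20.6%) and 3809 higher in cortex (20.7%). At PWK 14 it called 7107 (38.6%), 3511 higher in hippocampus (19.1%) and 3596 in cortex (19.5%), and at PWK 28 it called 7021 (38.1%), 3472 (18.9%) and 3549 (19.3%). Most differences were modest, since the median absolute log2 difference of the called genes was 0.49, 0.49 and 0.48 at the 3 ages. The genes kept at all 3 ages were 25.2% of those tested, 2201 higher in hippocampus (11.9%) and 2441 higher in cortex (13.3%). The balance of directions depended on the scaling, since with libraries scaled to equal totals 4472 genes were called as higher in hippocampus and 3342 as higher in cortex at PWK 7, with 4357 against 3061 at PWK 14 and 4136 against 3134 at PWK 28. The kept genes were then 2658 and 2136. That scaling moved the median difference of all genes from 0.01 to 0.05. A difference of at least 2-fold at each age was kept by 1141 genes (6.19%), of which 613 were higher in hippocampus (3.33%) and 528 in cortex (2.87%). The 12 hippocampal and 12 cortical libraries did not overlap at all for 2664 genes (14.5%), 1231 higher in hippocampus (6.68%) and 1433 in cortex (7.78%). Of the other genes, 3389 were called at 1 age, 2180 at 2 ages and 8191 at none. Across all 12 fits that each left out 1 pair of libraries, 3281 genes stayed kept in the same direction, 1498 higher in hippocampus and 1783 in cortex.

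**Figure D2:**
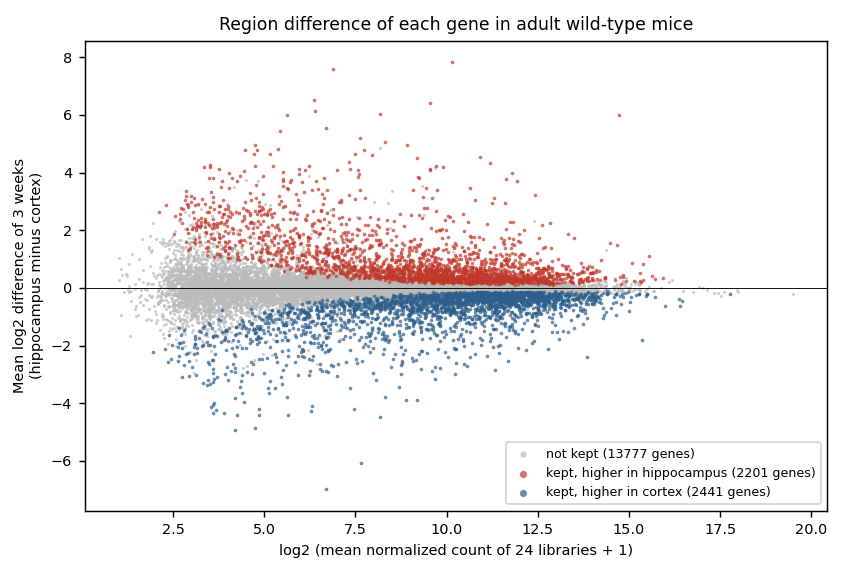
Mean log2 difference of the 3 ages (hippocampus minus cortex) against mean level for the 18419 genes tested. The 2201 kept genes higher in hippocampus are red, the 2441 kept genes higher in cortex are blue and the 13777 genes not kept are grey, and kept genes of small difference lie at high levels.

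The kept genes had higher median levels than the genes tested as a whole. Their median over the genes of the mean normalized count was 740 for those higher in hippocampus and 1166 for those higher in cortex, against 425 for all genes tested. Protein-coding genes made up 93.3% and 89.7% of these genes and 84.1% of all genes tested. The median absolute log2 difference was 0.63 for genes kept in hippocampus and 0.57 for those kept in cortex, and 0.20 over all genes. Median transcript length was 3631 and 3762 bases against 3144, and median GC content was 49.7% and 50.6% against 49.3%. The genes kept at 2-fold or more went the other way in level and length, with median levels of 73.2 (hippocampus) and 106 (cortex), median transcript lengths of 3070 and 3056 bases, and 85.8% and 76.1% protein-coding genes. What part level or length had in these shares was not tested. At the edge of the rule, the weakest weekly adjusted p was 0.04999 for Sympk and 0.04998 for Npsr1, just inside, and 0.05005 for Papss1 and 0.05008 for Zkscan6, just outside, with mean log2 differences of -0.18, -0.84, 0.16 and 0.23.

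The genes that led in hippocampus included markers of dentate granule cells. Dsp encodes desmoplakin, which anchors intermediate filaments at cell junctions, and lies on chromosome 13, 38151294 to 38198577, plus strand of GRCm38. Its level was 1929 to 2812 (median 2122) in hippocampus and 3.20 to 21.1 (median 10.2) in cortex. The mean log2 difference was 7.83 (SE 0.18, largest weekly adjusted p = 1.85e-10) in limma's test, the largest of the 24 leading genes, and no library of a region reached the range of the other. C1ql2, a secreted C1q-like protein of mossy fibre synapses (chromosome 1, 120340582 to 120343174, plus strand), was at 1226 to 2096 (median 1336) in hippocampus and 9.10 to 37.8 (median 15.7) in cortex, a difference of 6.41 (SE 0.16, largest weekly adjusted p = 2.52e-10). Lhx9, a LIM homeodomain transcription factor (chromosome 1, 138825186 to 138848577, minus strand), was at 462 to 658 (median 573) and 0.817 to 14.2 (median 8.79). Its difference was 6.04 (SE 0.22, largest weekly adjusted p = 1.45e-08).

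Genes of retroviral and retrotransposon origin were also among them. Syna encodes syncytin-A, an envelope protein that fuses cells in the placenta (chromosome 5, 134558146 to 134560171, minus strand), and was at 129 to 236 (median 162) in hippocampus and 0 to 4.11 (median 0.507) in cortex, with a difference of 6.52 (SE 0.24, largest weekly adjusted p = 4.11e-08). Rtl3, which derives from a retrotransposon gag gene (chromosome X, 106837082 to 106840644, minus strand), was at 98.3 to 269 (median 150.5) and 0 to 11.1 (median 1.03), with a difference of 6.14 (SE 0.30, largest weekly adjusted p = 2.25e-06). Some cortical libraries listed these genes at 0, as they did Pla2g2f and Best3, so the size of these differences depends on the pseudocount. The keratin gene Krt2 was at 139 to 270.3 (median 201) in hippocampus and 1.20 to 8.46 (median 2.83) in cortex (difference 5.56). Pla2g2f, a secreted phospholipase A2, differed by 5.42. The sodium/proton exchanger Slc9a4 differed by 5.06, the bestrophin Best3 by 4.80, the orphan receptor Gpr101 by 4.63 and the peptidase inhibitor Spink8 by 4.60. Of the 12 genes, Gpr101 varied most within hippocampus as a ratio, from 179.5 to 564, and still did not reach the cortical range of 4.60 to 22.3.

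The genes that led in cortex included several best known from immune and muscle cells. Trbc2, a constant segment of the T-cell receptor beta chain (chromosome 6, 41546730 to 41548352, plus strand), was at 1.98 to 17.1 (median 4.37) in hippocampus and 213 to 576 (median 425) in cortex, a difference of -6.07 (SE 0.21, largest weekly adjusted p = 1.96e-08). Ighg2c, a constant gene of the antibody heavy chain (chromosome 12, 113285325 to 113288932, minus strand), was at 0 to 10.1 (median 3.55) and 70.8 to 114 (median 95.7), a difference of -4.42 (SE 0.30, largest weekly adjusted p = 9.77e-06). Both have near-identical relatives in the genome, so that the assignment of reads between copies is uncertain. Cd6, a T-cell surface protein, differed by -3.79. Other lymphocyte genes, chosen after the values were seen, were mixed. Ighm, the mu heavy chain, was at 188 to 290.4 (median 242) in hippocampus and 906 to 1638 (median 1108) in cortex, and the T-cell coreceptor gene Cd4 was at 2.93 to 17.8 (median 7.60) and 22.8 to 98.0 (median 47.1), both kept and without overlap. Trac, the constant segment of the alpha chain, was at 4.64 to 30.9 (median 13.4) in hippocampus and 2.07 to 17.6 (median 7.98) in cortex, and Cd79a of the B-cell receptor was at 0.999 to 13.3 (median 6.01) and 2.94 to 13.6 (median 9.26). Ptprc, the pan-leukocyte antigen, was at 92.3 to 152 (median 125) and 127 to 184 (median 149), with overlapping ranges.

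Dkkl1, a Dickkopf-like secreted protein (chromosome 7, 45207519 to 45212147, minus strand), was at 10.1 to 71.8 (median 23.7) in hippocampus and 485 to 661 (median 529) in cortex, with a difference of -4.48 (SE 0.19, largest weekly adjusted p = 6.50e-08). Rasgef1c, a Ras guanine nucleotide exchange factor (chromosome 11, 49901835 to 49980994, plus strand), was at 34.7 to 107 (median 55.1) and 645 to 1139.5 (median 894), a difference of -3.89 (SE 0.13, largest weekly adjusted p = 1.11e-08). Adra1b encodes the alpha-1B adrenergic receptor for noradrenaline (chromosome 11, 43774606 to 43901210, minus strand) and was at 48.4 to 91.7 (median 73.4) and 568 to 875 (median 782), a difference of -3.44 (SE 0.10, largest weekly adjusted p = 3.42e-09). Of the genes known from muscle, the atrial myosin light chain Myl4 differed by -3.78, the cardiac troponin Tnnc1 by -3.47 and Igfn1 by -3.88. The keratin Krt80 differed by -4.19, the odorant receptor Olfr78 by -4.09 and the relaxin family receptor Rxfp2 by -3.35. All 12 genes were chosen to have no overlap between regions, and the gap was narrowest, as a ratio, for Cd6, with a highest hippocampal value of 16.5 and a lowest cortical value of 62.1.

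**Figure D3:**
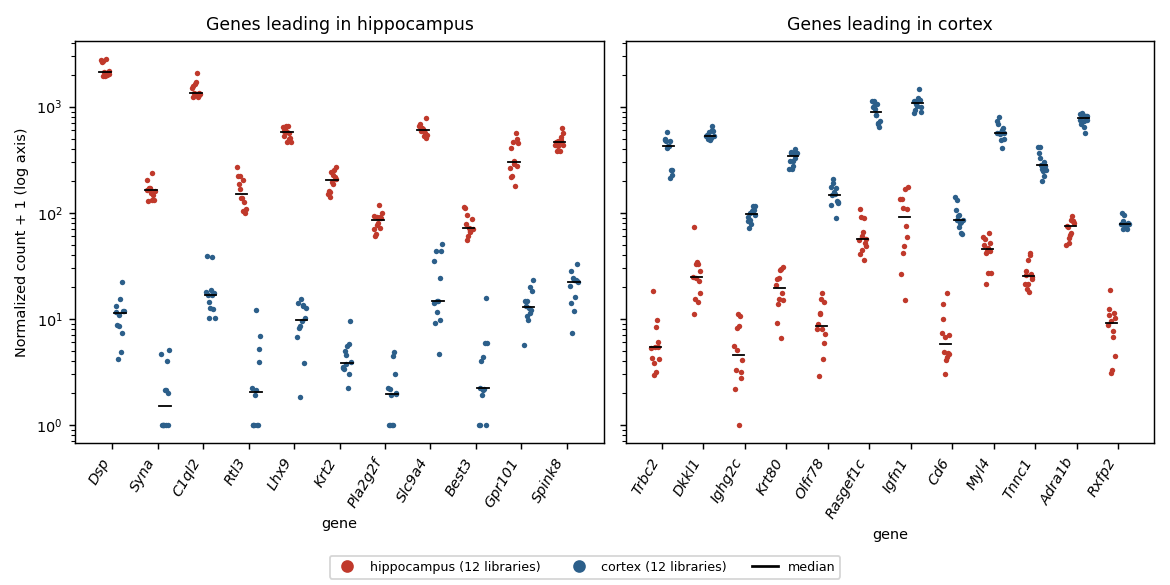
Normalized count plus 1 (log axis) of 11 leading genes of hippocampus and 12 of cortex in each library, with hippocampal libraries in red, cortical libraries in blue and medians as black lines. The 2 regions do not overlap for any of these genes, as the rule that chose them required.

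The same contrast was then measured in mice the rule had not used. In the 8 KI libraries of PWK 7 (4 hippocampal and 4 cortical), limma called 7662 of 18410 genes (41.6%), 3899 higher in hippocampus (21.2%) and 3763 higher in cortex (20.4%). Of the 4642 kept genes, 4636 differed in the same direction there, 4374 (94.2%) were called in that direction and none had the opposite sign with an adjusted or an unadjusted p under 0.05. Of the genes kept in hippocampus 93.6% were called and of those kept in cortex 94.8%. All 24 leading genes were called, with log2 differences between 4.24 and 7.56 for those of hippocampus and between -6.07 and -2.19 for those of cortex and a largest adjusted p of 5.77e-05. For Dsp the KI difference was 7.56, for C1ql2 6.22, for Trbc2 -6.07 and for Adra1b -3.31.

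Most markers of hippocampal neuron types were higher in hippocampus, with exceptions, and bulk libraries do not resolve its fields. For each gene list below, kept counts can be read against 11.9% of all genes kept in hippocampus and 13.3% in cortex, and the median over all genes tested was 0.01. Of 9 dentate granule cell markers, 6 were kept as higher in hippocampus and none as higher in cortex, with a median log2 difference of 2.93. Besides Dsp and C1ql2 these were Lct (4.23), Tdo2 (3.82), Glis3 (2.13) and Prox1, the transcription factor that maintains granule cell identity. Prox1 was at 3808 to 5441 (median 4027) in hippocampus and 491 to 679 (median 555) in cortex, a difference of 2.93 (SE 0.05, largest weekly adjusted p = 9.09e-12). Npnt, Stxbp6 and Trpc6 were not kept, with differences of -0.02, 0.09 and 0.23.

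Of 7 CA1 markers, 5 were higher in hippocampus, led by Spink8 (4.60), Fibcd1 (4.31) and Lefty1 (4.08), and 2 were higher in cortex, among them Mpped1 (-0.32). Fibcd1, a transmembrane acetyl-group receptor, was at 3903 to 5662 (median 4312) in hippocampus and 173 to 254 (median 237) in cortex. Of 10 CA2 and CA3 markers, 7 were higher in hippocampus and 1, Coch (-1.76), in cortex. Iyd (4.11) and the neurotrophin Ntf3 (3.10) led, followed by Amigo2 (1.70), Map3k15 (1.35), Rgs14 (1.09), Grik4 (1.01) and Bok (0.56). Rgs14, which limits plasticity in CA2, was at 1851 to 3129 (median 2441) and 1027 to 1290.4 (median 1182), so that the regions did not overlap although the difference was close to 2-fold at 1.09 (SE 0.04, largest weekly adjusted p = 9.57e-08).

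Layer markers of the neocortex leaned the other way, with exceptions. Of 8 upper-layer markers, 6 were higher in cortex and 2 in hippocampus. Lamp5 was at 774 to 1179 (median 959) in hippocampus and 5092 to 6178 (median 5576) in cortex (-2.54), and the homeodomain factor Cux2 was at 691 to 1294 (median 964) and 3216 to 4696 (median 4043), a difference of -2.05 (SE 0.06, largest weekly adjusted p = 2.28e-09). Rorb (-1.31), Rasgrf2 (-0.97), Cux1 (-0.83) and Inhba (-0.62) followed. Mdga1 (2.27) and Scnn1a (1.86), which mark upper layers within neocortex, were higher in hippocampus. Of 14 deep-layer markers, 7 were higher in cortex and 3 in hippocampus. Foxp2, a forkhead factor of corticothalamic neurons, was at 25.6 to 89.7 (median 54.0) in hippocampus and 349 to 615 (median 482) in cortex, a difference of -3.18 (SE 0.15, largest weekly adjusted p = 2.87e-07). Syt6 (-2.20), Tbr1 (-1.69), Nxph4 (-1.20), Rbp4 (-1.15), Ccn2 (-1.13) and Ntsr1 (-0.86) were also higher in cortex, and Nr4a2 (2.06), Bcl6 (1.13) and Etv1 (0.41) in hippocampus. Fezf2, which specifies neurons that project below the cortex, was not kept (0.02).

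Of 12 GABAergic interneuron markers, 4 were kept as higher in cortex and 1 in hippocampus, against 13.3% and 11.9% of all genes tested. The enzymes that make GABA, Gad1 (-0.10) and Gad2 (-0.14), and the peptide gene Sst (-0.03) were not kept. Vip was at 349 to 605 (median 469) in hippocampus and 1068 to 1979 (median 1494) in cortex, a difference of -1.69 (SE 0.07, largest weekly adjusted p = 8.32e-08), and Pvalb, of fast-spiking cells, was at 386 to 564 (median 472) and 675 to 996 (median 772), a difference of -0.74 (SE 0.05, largest weekly adjusted p = 3.56e-05). Both potassium channels of fast-spiking cells, Kcnc1 (-0.23) and Kcnc2 (-0.19), were higher in cortex by a small amount, Kcnc2 not being kept when libraries were scaled to equal totals or each age was fitted alone, and Adarb2 (0.48) was higher in hippocampus. Of 8 genes of neurons of any type, 6 were higher in cortex and none in hippocampus, with a median of -0.28. The synaptic protein gene Snap25 (-0.61) and the tubulin gene Tubb3 (-0.57) had the largest differences among these.

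Outside astrocytes, few glial and vascular genes were kept. None of 13 myelin genes, 8 oligodendrocyte precursor genes, 12 microglial genes and 5 red blood cell genes was kept in either direction by limma, with medians of 0.17, 0.07, -0.17 and -0.30. At an unadjusted p under 0.05 at each age, 1 oligodendrocyte precursor gene was higher in hippocampus and no gene of the other 3 lists passed. Astrocyte genes were mixed, with 5 of 12 higher in hippocampus and 1 in cortex. Gfap, the intermediate filament of astrocytes, was at 7502 to 9894 (median 9050.5) in hippocampus and 1675 to 4062 (median 2805) in cortex, a difference of 1.73 (SE 0.07, largest weekly adjusted p = 5.18e-08). Agt, the precursor of angiotensin, differed by 2.55. Aqp4 (0.45), Sox9 (0.33) and Gja1 (0.26) were higher in hippocampus by less, though Sox9 was not kept without the replicate block, with each age fitted alone or in 3 of the 12 fits that left out a pair. Aldh1l1 (-0.59) was higher in cortex, and the glutamate transporters Slc1a2 (-0.13) and Slc1a3 (0.06) were not kept. Of 10 endothelial and 7 pericyte genes, 1 each was kept, Flt1 (-0.22) and Abcc9 (-0.35), both higher in cortex, and neither call was stable. Flt1 was not kept in 7 and Abcc9 in 6 of the 12 fits that left out a pair, neither was kept with each age fitted alone or with libraries scaled to equal totals, and Flt1 was not kept without the replicate block or with a GC and length correction.

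Tissue that lies next to the hippocampus and the frontal cortex was represented as well. Of 10 choroid plexus markers, 7 were kept as higher in hippocampus, with a median of 4.14, and Ttr was at 593 to 114193 (median 40958) in hippocampus and 75.6 to 20074 (median 259) in cortex, with overlapping ranges. Of 6 ependymal markers, 5 were higher in hippocampus, among them Ccdc153 (2.66), Tmem212 (2.51) and the ciliogenesis factor Foxj1 (1.68), and 2 stayed kept with the choroid plexus level, the summed level of those 10 markers, as a covariate. Of 9 leptomeningeal genes, 4 were higher in hippocampus, led by the proteoglycans Dcn (1.96) and Lum (1.27), and 1 stayed kept. All 6 dentate markers kept as higher in hippocampus stayed so with that covariate, as did 4 of the 5 CA1 and 6 of the 7 CA2 and CA3 markers. Of 6 thalamus and habenula markers, 1 (Prkcd) was kept as higher in hippocampus and 1 (Tac2) as higher in cortex. Their summed level was 1327 to 2299 (median 1822) in hippocampus and 1021 to 1440 (median 1128) in cortex. Of 10 striatal markers, 5 were higher in cortex and none in hippocampus. Tac1, which encodes substance P, was at 91.7 to 158 (median 128) in hippocampus and 211 to 493 (median 282) in cortex, a difference of -1.24 (SE 0.08, largest weekly adjusted p = 2.15e-05). Drd2 and Adora2a, which define striatopallidal neurons, were highest in PWK 28 cortex, where Drd2 was at 231 ± 114 (SD, n = 4) against 75.2 ± 39.3 at PWK 7, and neither was kept. The part of these tissues in other differences was not tested beyond the settings named here.

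**Figure D4:**
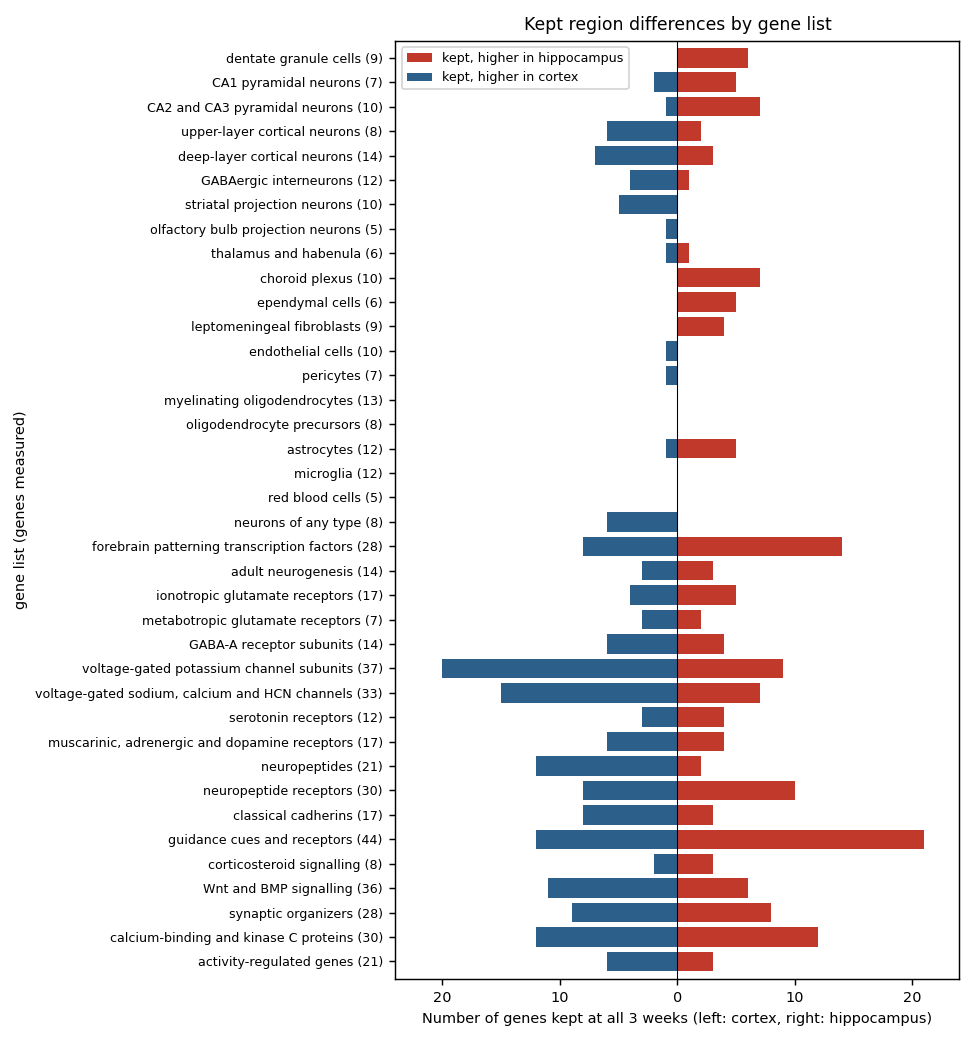
Number of genes kept at all 3 ages in each of 38 lists, with those higher in hippocampus to the right in red and those higher in cortex to the left in blue, and the number of genes measured in parentheses. Potassium channels had 20 of 37 genes and neuropeptides 12 of 21 toward cortex, and guidance cues and receptors had 21 of 44 toward hippocampus.

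Many transcription factors that pattern the forebrain differed between the regions. Of 28 measured, 14 were kept as higher in hippocampus and 8 as higher in cortex, with a median log2 difference of 0.36. The hippocampal group was headed by Lhx9 and Dmrt3 (3.99), a DM-domain factor of the medial pallium. Zbtb20, a zinc finger repressor needed for hippocampal neuron identity (chromosome 16, 42875881 to 43642602, plus strand), was at 9200.3 to 14137 (median 11969) in hippocampus and 1649 to 3809.7 (median 2385) in cortex, a difference of 2.25 (SE 0.05, largest weekly adjusted p = 5.43e-10). Nr2f2 (1.62), Bcl11b (1.21), Neurod1 (1.17), Neurod6 (1.17) and Neurod2 (0.95) were also higher there, as were the nuclear factor I genes of the list (Nfib 0.72, Nfia 0.52 and Nfix 0.16), while Nfic, which is outside it, was higher in cortex (-0.64).

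The cortical group included the POU factor Pou3f2, at 330.0 to 489 (median 388) in hippocampus and 1040.3 to 1523 (median 1256) in cortex, a difference of -1.63 (SE 0.04, largest weekly adjusted p = 6.04e-10). It also held the homeodomain factor Meis2 (-1.56), Tshz3 (-1.24), Id2 (-0.83), Etv5 (-0.82), Emx1 (-0.68) and Satb1 (-0.60). Of the close relatives Emx1 and Emx2, the latter (0.41) was higher in hippocampus, and Bcl11b was kept while Bcl11a was not (0.32). Adult neurogenesis genes, which the dentate gyrus is known to express, were mixed, with 3 of 14 kept in each direction. Dcx of immature neurons was higher in cortex (-1.07), and Sox11 (0.28) was kept as higher in hippocampus, but not without the replicate block, with each age fitted alone, with library weights or in 6 of the 12 fits that left out a pair. The proliferation genes Mki67 (-0.39) and Top2a (-0.09) were not kept.

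Glutamate receptor genes differed by subunit. Of 17 measured, 5 were kept as higher in hippocampus and 4 as higher in cortex, with a median log2 difference of 0.07. Gria1, an AMPA receptor subunit, was at 29652 to 39494 (median 33615) in hippocampus and 10626 to 13171 (median 11235) in cortex, a difference of 1.57 (SE 0.04, largest weekly adjusted p = 1.40e-09), and Gria2 (0.36) was also higher in hippocampus. Gria3 (-0.56) and Gria4 (-1.02), of the same family, were higher in cortex. Among kainate receptor genes, Grik4 (1.01) and Grik2 (0.46) were higher in hippocampus and Grik3 was higher in cortex, at 1535 to 2209 (median 1899) against 3440.4 to 4961 (median 4533) (-1.21). For NMDA receptors, Grin2a (0.64) was higher in hippocampus, and the obligatory subunit Grin1 (-0.10) and Grin2b (0.28) were not kept. Of 7 metabotropic receptors, 2 were higher in hippocampus, among them Grm5 (0.50), which couples to calcium release, and Grm3 (-0.89), Grm4 (-0.81) and Grm8 (-1.80), which lower cyclic AMP, were higher in cortex.

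GABA-A receptor subunits showed a like exchange of family members. Of 14 measured, 4 were kept as higher in hippocampus and 6 as higher in cortex, with a median log2 difference of -0.24. Gabra5, which forms extrasynaptic receptors, was at 4439 to 6577 (median 5587) in hippocampus and 1334 to 1883 (median 1739.9) in cortex, a difference of 1.69 (SE 0.05, largest weekly adjusted p = 1.67e-09), and Gabra2 (0.89) was also higher in hippocampus. Gabra3 was at 1299 to 2333 (median 2033) and 5147 to 5999 (median 5440.2), a difference of -1.56 (SE 0.05, largest weekly adjusted p = 2.85e-08), and Gabra4 (-0.30) was higher in cortex too. Among beta subunits, Gabrb1 (0.51) was higher in hippocampus and Gabrb2 (-0.46) in cortex. The delta subunit Gabrd (-1.48), found outside synapses, was higher in cortex.

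Ion channels leaned toward cortex. For potassium channel subunits, 20 of 37 were kept as higher in cortex and 9 in hippocampus, with a median of -0.41. The 5 genes of the Kcnh family in the list, which encode channels of the ether-a-go-go group, were higher in cortex, namely Kcnh4 (-2.97), Kcnh5 (-1.87), Kcnh7 (-1.50), Kcnh3 (-1.16) and Kcnh1 (-0.91). Outside the list, Kcnh2 (-0.36) and Kcnh6 (-1.17) were higher in cortex and Kcnh8 was not kept (0.83). Kcnh4 was at 61.6 to 140.0 (median 95.7) in hippocampus and 616 to 937 (median 751) in cortex, a difference of -2.97 (SE 0.07, largest weekly adjusted p = 2.30e-10). The silent subunits Kcnv1 (-1.61) and Kcnf1 (-1.33) were higher in cortex as well. Higher in hippocampus were Kcng2 (2.04), the accessory subunits Kcnab1 (0.84), Kcnip2 (0.68) and Kcnab2 (0.64), and the A-type channel genes Kcna4 (0.59) and Kcnd2 (0.55).

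Of 33 sodium, calcium and HCN channel genes, 15 were higher in cortex and 7 in hippocampus (median -0.21). The sodium channel beta subunits parted, with Scn4b at 521 to 896 (median 711) in hippocampus and 2386 to 4780.1 (median 3716) in cortex (-2.36) and Scn3b at 8189 to 11369 (median 9675) and 2972 to 4222 (median 3693) (1.41). T-type calcium channels, which open near rest, parted in the same way, with Cacna1h (1.49) higher in hippocampus and Cacna1g (-0.60) and Cacna1i (-0.71) higher in cortex. Of the TARP genes, which bind AMPA receptors, Cacng8 (1.22) was higher in hippocampus and Cacng3 (-1.41) and Cacng2 (-0.70) were higher in cortex. Hcn4 (-1.43), Hcn3 (-0.51) and Hcn2 (-0.25) were higher in cortex.

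Receptors for modulatory transmitters differed in both directions. Of 12 serotonin receptors measured, 4 were kept as higher in hippocampus and 3 as higher in cortex, with a median log2 difference of -0.03. Htr4, which raises cyclic AMP, was at 299 to 417 (median 348) in hippocampus and 13.1 to 41.0 (median 24.2) in cortex, a difference of 3.84 (SE 0.13, largest weekly adjusted p = 9.74e-09), and Htr5b (3.25), Htr2c (1.45) and Htr1a (0.89) were also higher in hippocampus. With the choroid plexus level as a covariate, 2 of these 4 stayed kept, and Htr2c and Htr1a did not. Htr2a, the receptor at which classical hallucinogens act, was at 479.5 to 727 (median 562) and 1499 to 2385 (median 1924), a difference of -1.79 (SE 0.06, largest weekly adjusted p = 2.40e-09), and Htr1f (-1.04) and Htr5a (-0.83) were higher in cortex too. Of 17 muscarinic, adrenergic and dopamine receptors, 4 were higher in hippocampus and 6 in cortex. The muscarinic receptor gene Chrm5 (3.76) was at a median of 82.7 in hippocampus and 4.72 in cortex without overlap, and Drd5 (2.18), Adra1d (0.65) and Adra2c (0.59) shared its direction. Drd1 (-1.64), Adra1a (-1.16), Adrb1 (-1.13), Chrm2 (-1.04) and Chrm4 (-0.68) were higher in cortex beside Adra1b, so that the alpha-1 receptor genes fell on both sides. Drd1 is also in the list of striatal markers, and the part of striatal tissue in these differences was not tested.

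Neuropeptide genes leaned toward cortex. Of 21 measured, 2 were kept as higher in hippocampus and 12 as higher in cortex, with a median log2 difference of -0.76. Crh, the corticotropin-releasing hormone, was at 6.57 to 37.8 (median 25.9) in hippocampus and 57.8 to 184 (median 86.5) in cortex, a difference of -2.11 (SE 0.13, largest weekly adjusted p = 7.54e-06), and Adcyap1, which encodes PACAP, was at 84.2 to 209.6 (median 129.8) and 368 to 879 (median 668), a difference of -2.30 (SE 0.11, largest weekly adjusted p = 1.55e-07). Tac2 (-1.71), Vip, Cartpt (-1.29), Npy (-1.25), Tac1 (-1.24), Penk (-1.23), Pdyn (-0.93) and Cck (-0.41) were among the others. Tac1 and Penk are also in the list of striatal markers. The summed level of that list was 7629 to 16838 in cortex and 5131 to 6703 in hippocampus. The part of striatal tissue in the cortical lean of the peptide genes was not tested. Nts, which encodes neurotensin, was the exception with the largest size, at 90.5 to 247 (median 131) in hippocampus and 4.51 to 59.6 (median 9.63) in cortex, a difference of 3.39 (SE 0.16, largest weekly adjusted p = 3.58e-06), and Grp (0.99) was also higher there. Of 30 peptide receptor genes, 10 were higher in hippocampus and 8 in cortex. Of the 10, 7 stayed kept with the choroid plexus level as a covariate. Npy2r was at 1509.6 to 2208 (median 1726) and 71.7 to 122 (median 98.2), a difference of 4.20 (SE 0.07, largest weekly adjusted p = 1.07e-11). For the same ligands, Crhr2 (2.35) was higher in hippocampus and Crhr1 (-1.36) in cortex, Tacr3 (2.39) was higher in hippocampus while Tacr1 (-0.35) was not kept, and Sstr4 (0.79) was higher in hippocampus and Sstr2 (-0.99) in cortex. Cckbr (-2.97), Oprk1 (-2.04) and Oprd1 (-1.14) were higher in cortex, and the oxytocin receptor Oxtr (0.75) in hippocampus.

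Corticosteroid signalling genes split by receptor. Nr3c2, the mineralocorticoid receptor (chromosome 8, 76899442 to 77245012, plus strand), was at 4098 to 7249 (median 5512) in hippocampus and 1033 to 1394 (median 1153) in cortex, a difference of 2.28 (SE 0.05, largest weekly adjusted p = 9.02e-11). Nr3c1, the glucocorticoid receptor, was at 2316 to 2858 (median 2531) and 3623 to 4311 (median 3687), lower in hippocampus by a difference of -0.56 (SE 0.03, largest weekly adjusted p = 2.00e-06). The regions did not overlap for either receptor. Hsd11b1, which regenerates active corticosterone, differed by 1.28, and Fkbp5, a chaperone that glucocorticoids induce, by 1.02, both higher in hippocampus. Sgk1 (0.21) and Tsc22d3 (-0.13), which glucocorticoids also induce, were not kept. Of the 8 genes, 3 were higher in hippocampus and 2 in cortex.

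Axon guidance genes leaned toward hippocampus. Of 44 measured, 21 were kept as higher in hippocampus and 12 as higher in cortex, with a median log2 difference of 0.30. Among ligands, Slit1 (2.16), Sema3e (1.58), Efnb3 (1.02) and Slit3 (0.99) were higher in hippocampus and Sema3a (-2.61), Efna5 (-2.06) and Efnb2 (-0.82) in cortex. Slit1, a repellent ligand of Robo receptors, was at 8574 to 12496 (median 9927) in hippocampus and 1881 to 2674 (median 2263) in cortex, a difference of 2.16 (SE 0.04, largest weekly adjusted p = 5.78e-11). Among receptors, both neuropilins, which bind class 3 semaphorins, were higher in hippocampus (Nrp1 1.78 and Nrp2 1.75). Sema3a, a ligand of Nrp1, was at 86.7 to 187 (median 115) in hippocampus and 603 to 950.0 (median 740.3) in cortex (-2.61). Plxnd1, the receptor of Sema3e, was higher in cortex (-1.81) while its ligand was higher in hippocampus. Of the ephrin receptors, Epha6 (2.02), Epha7 (1.17), Epha3 (0.90), Epha4 (0.76) and Epha5 (0.49) of class A and Ephb2 (0.45) of class B were higher in hippocampus, Epha8 (-0.80), Ephb6 (-1.37), Ephb3 (-0.57) and Ephb1 (-0.34) were higher in cortex, and Epha10 (-0.16) was not kept. Dcc (0.97) and Unc5c (0.99), which bind netrins, were higher in hippocampus, and the ligand Ntn1 (-0.22) was not kept.

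Adhesion and signalling families were divided. Of 17 classical cadherins, 8 were higher in cortex, led by Cdh7 (-1.61), Cdh18 (-1.59) and Cdh22 (-1.44), and 3 in hippocampus, namely Cdh9 (0.95), Cdh24 (0.84) and Cdh8 (0.65). Cdh9, which takes part in mossy fibre to CA3 synapses, was at 881 to 1429.9 (median 1030.0) in hippocampus and 389 to 687 (median 534) in cortex. Of 36 Wnt and BMP genes, 11 were higher in cortex and 6 in hippocampus, and after Dkkl1 the largest cortical differences were those of Bmp3 (-2.80), Wnt10a (-1.84) and Wnt9a (-1.48). With the choroid plexus level as a covariate, 2 of the 6 stayed kept as higher in hippocampus. Of 28 synaptic organizers, 9 were higher in cortex and 8 in hippocampus. Cbln2, a cerebellin that binds neurexins, was at 164 to 319.8 (median 229) in hippocampus and 1184 to 2106 (median 1589) in cortex, a difference of -2.79 (SE 0.06, largest weekly adjusted p = 1.23e-10). Among the leucine-rich repeat organizers, Lrrtm1 was higher in hippocampus and Lrrtm3 (-1.49) and Lrrtm2 (-0.48) in cortex. Both netrin-G genes, Ntng1 (1.16) and Ntng2 (0.77), were higher in hippocampus, and Lrrc4c (-0.78), which encodes the receptor of netrin-G1, was higher in cortex. The neurexin gene Nrxn3 (-0.28) was not kept.

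Of 30 calcium-binding and protein kinase C genes, 12 were kept in each direction. Cabp7 was at 5911 to 9018 (median 7203) in hippocampus and 461 to 658 (median 558) in cortex, a difference of 3.71 (SE 0.06, largest weekly adjusted p = 4.12e-12), and hippocalcin, encoded by Hpca, was at 33067 to 48217 (median 38212) and 12163 to 14679 (median 13744), a difference of 1.50 (SE 0.04, largest weekly adjusted p = 1.24e-09). The ryanodine receptor gene Ryr3 (1.60) and the kinase genes Prkcd (1.51), Camk2b (0.87) and Prkca (0.66) were also higher in hippocampus. Necab3 (-2.08), Cabp1 (-1.27), Pcp4 (-1.06), Camk2d (-1.01), Camk4 (-0.86) and Prkcb (-0.50) were higher in cortex. Camk2a, the alpha subunit of the same kinase as Camk2b, was at 105072 to 161081 (median 122016) and 98251 to 145322 (median 125383) and was not kept (0.04). The exchange factors Rasgrf1 (0.77) and Rasgrf2 (-0.97) fell on opposite sides.

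Whether a region difference kept its size between the ages was tested next. Each age comes from its own set of mice. A change with age therefore cannot be told apart from differences between these sets in handling, dissection or sequencing. The size differed between PWK 7, 14 and 28 for 265 of 18419 genes (1.44%) in limma's F test, and 2510 genes had an unadjusted p under 0.05. Of the 265, 101 were kept genes and 164 were not. Hippocampal levels relative to cortex were lower at PWK 28 than at PWK 7 for 211 of the 265 (79.6%), against 49.9% of all genes. Of the 55 kept genes higher in hippocampus that changed, 50 had a smaller difference at PWK 28 than at PWK 7, and of the 46 higher in cortex 31 had a larger one. The count depends on a few libraries, since it lay between 116 and 300 when each pair was left out, 96 genes were called in all 12 of these fits, and 28 were called without the 3 pairs with olfactory bulb markers. Region differences were called in opposite directions at 2 ages for 78 genes, of which 53 also changed in the F test. In 42 of these the gene was higher in hippocampus at PWK 7 and in cortex at PWK 28, and in 20 it went the other way.

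Of 21 genes that neuronal activity induces, 13 changed. Arc, whose product acts at active synapses (chromosome 15, 74669083 to 74672570, minus strand), had the smallest p of all genes. In cortex it was at 1514 ± 487, 5492 ± 1502 and 11499 ± 1183 (SD, n = 4) at PWK 7, 14 and 28, and in hippocampus at 2514 ± 438, 3532 ± 1131 and 5323 ± 822 (SD, n = 4). Its difference was 0.77 at PWK 7, -0.65 at PWK 14 and -1.12 at PWK 28 (adjusted p of change = 7.22e-06), so that Arc was higher in hippocampus at the first age and in cortex at the other ages. Nptx2, a pentraxin that gathers AMPA receptors, was at 934 ± 74.8, 1051 ± 66.3 and 2098 ± 188 (SD, n = 4) in cortex and 722 ± 95.4, 473 ± 31.8 and 693 ± 58.7 (SD, n = 4) in hippocampus, and its difference went from -0.38 to -1.60 (adjusted p = 8.28e-05). Egr1, a zinc finger factor, was at 3422 ± 381, 8034 ± 753 and 9881 ± 426 (SD, n = 4) in cortex and 2810.2 ± 484, 3149 ± 860.4 and 3821 ± 416 (SD, n = 4) in hippocampus, with differences of -0.29 at PWK 7, -1.39 at PWK 14 and -1.38 at PWK 28 (adjusted p = 0.00349). Homer1, a scaffold of the postsynaptic density, was at 4774 ± 500.3, 6436 ± 1111 and 10914 ± 1018 (SD, n = 4) in cortex and 3730.1 ± 58.0, 3449.9 ± 248 and 4059 ± 338 (SD, n = 4) in hippocampus, with differences of -0.35 at PWK 7, -0.89 at PWK 14 and -1.43 at PWK 28 (adjusted p = 0.00349). For each of Nptx2, Egr1 and Homer1 the cortical mean was highest at PWK 28, while the hippocampal means stayed within a narrower range. In the KI libraries of PWK 7 the difference of Arc was 0.39 and was not called (adjusted p = 0.182 in limma's test). Those of Nptx2 (-0.29), Egr1 (-0.76) and Homer1 (-0.51) were called there.

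The other changed members of the list followed unlike courses. Egr3 (-0.20 at PWK 7, -0.60 at PWK 14 and -1.44 at PWK 28), Egr2 (-0.08 at PWK 7, -1.73 at PWK 14 and -1.61 at PWK 28), Nr4a1 (-0.04 at PWK 7, -0.95 at PWK 14 and -0.73 at PWK 28), Fosb (-0.03 at PWK 7, -1.28 at PWK 14 and -0.85 at PWK 28) and Junb (0.49 at PWK 7, -0.30 at PWK 14 and -0.32 at PWK 28) each had their highest hippocampal level relative to cortex at PWK 7. In the KI libraries of PWK 7 their differences were -0.30 (Egr3), -1.10 (Egr2), -0.57 (Nr4a1), -0.69 (Fosb) and -0.001 (Junb). All but that of Junb were called there as higher in cortex. For Egr2, Nr4a1 and Fosb the PWK 7 differences near 0 of WT mice were thus not seen in KI mice, and the reason was not tested. Bdnf, a neurotrophin, was higher in hippocampus at PWK 7 and 14 and was not called at PWK 28, with differences of 1.31 at PWK 7, 0.68 at PWK 14 and 0.03 at PWK 28. Nr4a3, an orphan nuclear receptor, was higher in hippocampus at each age, by 2.42 at PWK 7, 1.68 at PWK 14 and 1.24 at PWK 28. Nr4a3 was at 2432 to 2898 (median 2589) in hippocampus and 370.5 to 1301 (median 885) in cortex over the 12 libraries of each, without overlap. The change of Fos (-0.63 at PWK 7, -1.44 at PWK 14 and -0.73 at PWK 28) did not pass the test (adjusted p = 0.232). The adjusted p of change was 0.0445 for Npas4, which lost its call in 10 of the 12 fits that left out 1 pair, and without the replicate block the adjusted p was 0.807 for Npas4 and 0.136 for Nr4a1. Without the 3 pairs with olfactory bulb markers, Arc, Nptx2, Egr1, Egr3, Fosb, Junb and Nr4a1 were still called, and Homer1, Nr4a3, Egr2, Bdnf, Dusp6 and Npas4 were not. The PWK 28 cortical libraries of that fit, replicates 1 and 2, were highest in striatal markers. The part of such tissue in these changes was not tested.

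These genes are known as targets of factors that bind cyclic AMP response elements and serum response elements, and the promoters of 4 are shown because the letters of these elements can be seen in them. Of the 13 changed genes, 9 have promoters in the RefSeq table of GRCm38.p6 (250 bases before to 50 after a start), 20 in all. The letters TGACGT, the core of the cyclic AMP response element, were searched on both strands (ACGTCA on the other) and are in 7 of these 20 promoters, from 5 genes, and in 7.513% of the 32851 promoters of the table. The CArG box, the core of the serum response element, is in 4 of the 20, all of Egr2, and in 1.629% of all. Several of the 20 windows overlap, so they are not independent. The sequences run 5′ to 3′ on the strand of the gene, and capitals mark TGACGT or ACGTCA and, in Egr2, the CArG box as well. A match is a description and not a measured binding site. The windows are Homer1 (chr13:93303507-93303806, plus strand), Nr4a3 (chr4:48045055-48045354, plus strand), Egr2 (chr10:67537619-67537918, plus strand) and Bdnf (chr2:109692186-109692485, plus strand).
Homer1: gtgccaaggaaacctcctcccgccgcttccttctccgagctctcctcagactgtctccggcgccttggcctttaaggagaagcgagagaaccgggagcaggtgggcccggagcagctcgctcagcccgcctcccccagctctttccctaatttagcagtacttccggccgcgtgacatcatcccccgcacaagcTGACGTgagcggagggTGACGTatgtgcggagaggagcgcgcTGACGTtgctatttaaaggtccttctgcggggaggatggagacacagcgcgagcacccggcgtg
Nr4a3: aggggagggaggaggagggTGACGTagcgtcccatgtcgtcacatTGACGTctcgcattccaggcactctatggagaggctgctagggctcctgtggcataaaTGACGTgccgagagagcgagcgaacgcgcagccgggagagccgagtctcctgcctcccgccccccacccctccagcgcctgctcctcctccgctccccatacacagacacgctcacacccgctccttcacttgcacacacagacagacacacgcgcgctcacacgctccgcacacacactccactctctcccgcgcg
Egr2: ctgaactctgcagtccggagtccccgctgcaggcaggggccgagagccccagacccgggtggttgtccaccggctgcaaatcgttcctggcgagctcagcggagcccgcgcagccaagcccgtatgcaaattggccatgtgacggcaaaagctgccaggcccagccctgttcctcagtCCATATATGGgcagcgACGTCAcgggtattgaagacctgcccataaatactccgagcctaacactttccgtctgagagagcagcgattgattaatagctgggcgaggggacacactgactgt
Bdnf: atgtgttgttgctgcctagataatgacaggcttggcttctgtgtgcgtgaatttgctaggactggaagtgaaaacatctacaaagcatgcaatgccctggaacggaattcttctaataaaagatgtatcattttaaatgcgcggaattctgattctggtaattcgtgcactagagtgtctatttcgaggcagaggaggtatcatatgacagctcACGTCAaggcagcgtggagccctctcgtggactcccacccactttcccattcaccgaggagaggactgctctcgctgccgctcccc
Homer1 and Nr4a3 hold 3 matches each and Egr2 and Bdnf 1 each. Npas4, the other of the 5 genes with TGACGT in a promoter, holds 2 and is not shown. Homer1 was higher in cortex and Nr4a3 higher in hippocampus at each age, so the same letters occur in genes of both region directions. In their change with age the 4 genes went the same way. For each of them the hippocampal level relative to cortex was lower at the last age than at the first. The same held for 79.6% of all 265 changed genes, to which these 4 belong. The part of these letters in the region differences or in their change was not tested.

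Region differences outside the activity list also changed in size. Htr1a, an inhibitory serotonin receptor (chromosome 13, 105443639 to 105448122, plus strand), was at 892 ± 68.5, 1204 ± 35.1 and 1095 ± 76.2 (SD, n = 4) in hippocampus and 722 ± 57.4, 609 ± 17.1 and 418 ± 33.6 (SD, n = 4) in cortex at PWK 7, 14 and 28, so that its difference went from 0.31 to 1.39 (adjusted p = 2.75e-05). The range over the 12 libraries of hippocampus began at 797 and that of cortex ended at 791, without overlap. Sgsm1, a regulator of small GTPases, was at 2768 ± 122, 3951 ± 182 and 5959 ± 411 (SD, n = 4) in cortex and 2260.2 ± 157, 2754 ± 219 and 2674 ± 169 (SD, n = 4) in hippocampus, with differences of -0.29 at PWK 7, -0.52 at PWK 14 and -1.16 at PWK 28 (adjusted p = 1.53e-05). For Ptgs2, the inducible cyclooxygenase, the differences were 1.56 at PWK 7, 0.59 at PWK 14 and -0.24 at PWK 28 (adjusted p = 3.88e-04), and for the chaperone gene Dnajb5 0.55 at PWK 7, 0.00 at PWK 14 and -0.32 at PWK 28 (adjusted p = 3.88e-04). Neither gene was kept, since Ptgs2 was not called at PWK 28 and Dnajb5 was not called at PWK 14 and was higher in cortex at PWK 28. Htr1a, Sgsm1, Ptgs2 and Dnajb5 were still called when each pair of libraries was left out and without the 3 pairs with olfactory bulb markers. The PWK 28 cortical libraries of that last fit, replicates 1 and 2, were highest in striatal markers. The part of such tissue in these changes was not tested.

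Among list members, the difference of Nrp1 went from 2.20 at PWK 7 to 1.42 at PWK 28 (adjusted p = 8.41e-04), with hippocampal means of 2641 ± 229.5, 2504 ± 139 and 2202 ± 107 (SD, n = 4) and cortical means of 574 ± 17.3, 748 ± 20.1 and 823 ± 20.4 (SD, n = 4). The mineralocorticoid receptor gene Nr3c2 had differences of 2.60 at PWK 7, 2.23 at PWK 14 and 2.02 at PWK 28 (adjusted p = 0.0387), with hippocampal means of 6633 ± 707, 5803 ± 482 and 4628 ± 361 (SD, n = 4), but lost its call in 8 of 12 fits that left out a pair. Fkbp5 had differences of 1.25 at PWK 7, 1.24 at PWK 14 and 0.57 at PWK 28 (adjusted p = 0.00777) and Penk of -1.14 at PWK 7, -0.75 at PWK 14 and -1.81 at PWK 28 (adjusted p = 0.00531). Penk was at 1028 ± 163, 849.7 ± 58.2 and 1929.8 ± 378 (SD, n = 4) in cortex, highest at PWK 28, the age at which other striatal markers were highest in cortex. Cacng2, Necab2, Neurod6, Mdga1, Htr5b, Kcnab1 and Id2 were also called, with adjusted p between 0.00693 and 0.0465, of which Id2 lost its call in 11 of the 12 fits that left out a pair, Kcnab1 in 9, Mdga1 in 7, Htr5b in 2 and Neurod6 in 1. None of these 7 was called without the 3 pairs with olfactory bulb markers. Of the others, Nrp1 and Fkbp5 were still called without these pairs and Nr3c2 and Penk were not. That fit keeps the PWK 28 cortical libraries highest in striatal markers.

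**Figure D5:**
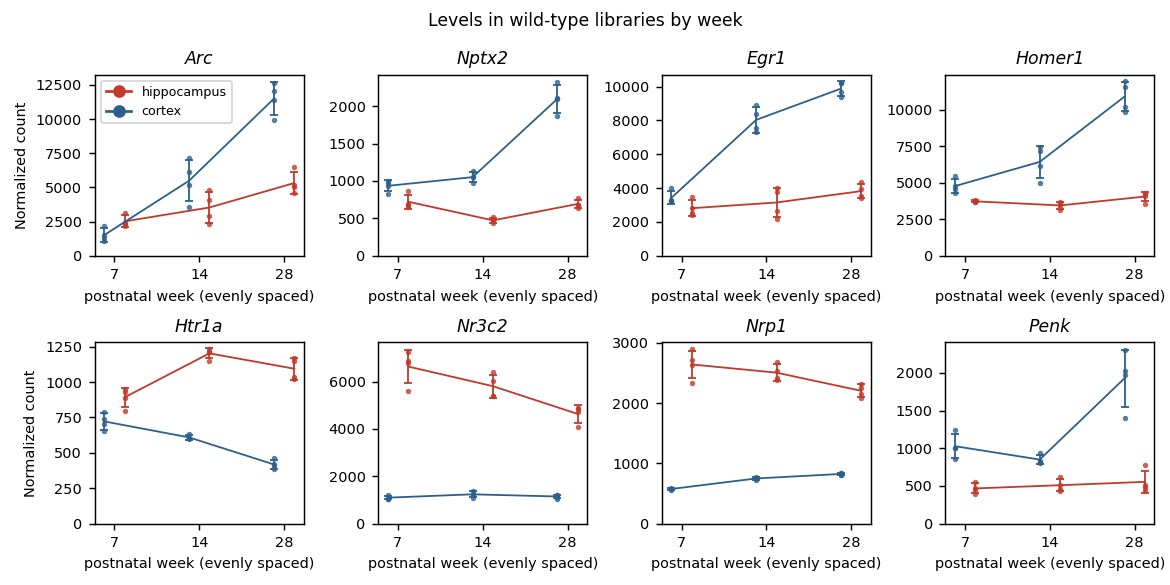
Normalized counts of 8 genes whose region difference changed with age, with points for libraries and lines and bars for means and SD (n = 4), cortex in blue and hippocampus in red, and the 3 ages spaced evenly. Arc, Nptx2, Egr1, Homer1 and Penk have their highest cortical means at PWK 28, the Htr1a lines move apart, and those of Nr3c2 and Nrp1 move together.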

How the data were processed

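RNA from frontal cortex and hippocampus was sequenced with a stranded TruSeq kit, and the deposited table holds a normalized signal: gene counts that the authors estimated with Salmon 0.11.2 on GRCm38 (per the labels, with R 3.6.0 and DESeq2 1.19.11) and scaled over all 64 libraries. The study's methods name later versions and a total RNA kit, so which were used is uncertain. No columns were left unmapped.

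From the deposited values, log2(value + 1) was fitted with limma-trend (limma 3.58.1, R 4.3.3) in the 24 wild-type libraries, with a term for each of 12 pairs of equal replicate number and a region contrast for each week. This fallback had been planned for normalized values in place of a count model. The test covered genes whose mean value reached 1, and p-values were adjusted over all of them by Benjamini-Hochberg, with calls made below 0.05. The low values of the table do not give whole reads, so depth is unknown and no count test was run. Differences on this scale understate those of weakly expressed genes. Samples were grouped by their labels, and no 2 libraries were copies of each other (highest correlation 0.994). Replicates are separate mice, 4 for each age and genotype per the labels.

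Named genes are the 12 kept genes per direction with the largest mean difference that had a usual symbol, a mean of at least 50 in the higher region at each week and no overlap between regions, members of 38 lists, the 6 genes with the smallest p of change with week and kept list members that changed, the 2 genes on each side of the threshold, and genes called in opposite directions. Results of some of these genes are not reported here. The members and lists were chosen with earlier results of these data known. Positions and biotypes came from GENCODE M21 of GRCm38, which matched 18420 of 18432 genes. Promoters came from RefSeq. The fit was tested on simulated data with known differences. Alternatives changed the block, pseudocount, filter, scaling, weights, GC and length correction, minimum difference and libraries.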

Additional observations from a re-analysis of the deposited data

Results flagged for a closer look

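A single library stood far from the other 3 of its group, by Dixon's criterion for 4 values, in 19 of 198 groups examined (30 named genes and 3 marker sums in 6 groups each). The criterion flags about 1 in 20 groups of normally spread values, but it was applied to untransformed counts. Where the other 3 values are 0, as for Syna and Rtl3 in PWK 7 cortex, any value above 0 is flagged. The 19 can therefore not be set against that rate. The sum of choroid plexus markers was 112002 in hippocampal PWK 14 replicate 3 (others 2244 to 19013), 22979 in cortical PWK 28 replicate 2 (others 528 to 995), 1259 in cortical PWK 7 replicate 1 (others 274 to 305) and 367 in cortical PWK 14 replicate 3 (others 535 to 545). The sum of olfactory bulb markers was 1076 in cortical PWK 14 replicate 3 (others 290.0 to 298). At PWK 28, 2 of 4 cortical libraries were high in these markers, so that neither stood alone by this criterion.

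Among genes that led in hippocampus, single cortical libraries stood apart. Syna was at 3.66 in cortical PWK 7 replicate 1 (others 0 to 0) and Krt2 at 3.94 in cortical PWK 7 replicate 4 (others 2.38 to 2.48). C1ql2 was at 37.8 in cortical PWK 7 replicate 2 (others 13.4 to 17.0) and Spink8 at 32.1 in cortical PWK 28 replicate 3, above the others. Rtl3 was at 1.22 in cortical PWK 7 replicate 1 (others 0 to 0) and at 11.1 in cortical PWK 14 replicate 3 (others 0 to 1.14), and Best3 was at 3.34 in cortical PWK 14 replicate 3 (others 0.922 to 1.18), the same PWK 14 library in which olfactory bulb markers were high. Among genes that led in cortex, Trbc2 was at 17.1 in hippocampal PWK 7 replicate 3 (others 2.84 to 4.32), the hippocampal library closest to cortex on the first principal component. Ighg2c was at 9.66 in hippocampal PWK 28 replicate 1 (others 1.77 to 3.08) and Tnnc1 at 40.5 in hippocampal PWK 28 replicate 1 (others 22.8 to 25.6), both in the same library. Olfr78 was at 88.3 in cortical PWK 28 replicate 1 (others 121 to 127) and Rxfp2 at 95.1 in cortical PWK 14 replicate 1 (others 74.5 to 77.3). Of the genes that changed with age, Sgsm1 was at 2495 in hippocampal PWK 7 replicate 3 (others 2177 to 2191) and Ptgs2 at 863 in hippocampal PWK 7 replicate 3 (others 993 to 1008). No such library closed the gap between the regions for a leading gene.

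The region difference differed between the ages by limma's F test, with adjusted p of 7.22e-06 for Arc, 1.53e-05 for Sgsm1, 2.75e-05 for Htr1a, 8.28e-05 for Nptx2, 3.88e-04 for Ptgs2 and 3.88e-04 for Dnajb5. For kept genes of the lists, the adjusted p was 0.00349 for Egr1, 0.00349 for Homer1, 0.00680 for Nr4a3, 0.0445 for Npas4 among activity-regulated genes and 0.00777 for Cacng2, 0.0465 for Id2, 0.00777 for Fkbp5, 8.41e-04 for Nrp1, 0.0354 for Kcnab1, 0.0387 for Nr3c2, 0.00693 for Necab2, 0.0107 for Neurod6, 0.0332 for Mdga1, 0.00531 for Penk and 0.0176 for Htr5b among the others.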

How the results depend on the processing

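The count of kept genes lay between 4177 and 4822 when the block, pseudocount, filter, scaling, library weights or a GC and length correction was changed one at a time, or each week fitted alone, and no kept gene was kept in the opposite direction. When 1 pair of libraries was left out at a time, kept genes numbered 4205 to 4472. Requiring an absolute log2 difference above 0.5 lowered the calls by construction to 1791, 1659 and 1612 at PWK 7, 14 and 28, kept genes to 1133 and kept list members from 330 to 150. A mean of at least 50 left 690 of the 1141 genes kept at 2-fold or more, all 690 that it still tested. Scaling to equal totals moved the share of kept genes higher in hippocampus from 47.4% to 55.4%. Equal replicate numbers were not shown to mark pairs: the deviations of hippocampal and cortical libraries of one number correlated between -0.08 and 0.24, with 1 of 12 over 0.1. Without the replicate block, kept genes numbered 4761, of which 4483 were shared, and genes that changed with week 388, of which 237 were among the 265. Of the genes named above, Egr1, Fos, Flt1, Kcna4, Npas4, Npsr1, Sox9 and Sox11 lost their kept call without the block. Egr1 was also not kept with equal totals, with the GC and length correction or in 6 of the 12 fits without a pair. Cck was not kept with each week fitted alone, equal totals or the GC and length correction, and Nfix, Cck and Ntsr1 were not kept in 8, 5 and 5 of the 12 fits without a pair.

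Settings chosen after seeing the data moved more. The choroid plexus level as a covariate, replicate block kept, gave 4152 calls at PWK 7 and 3768 at PWK 28 and 2784 kept genes, and reversed the mean log2 difference to -0.660 for Folr1, -0.0166 for Clic6, -0.350 for Kcne2, -0.00532 for Igf2, -0.491 for Ttr. All but Igf2 of these are among the markers summed, so that this is set by how the covariate was made. This level is itself higher in hippocampus, so the covariate also takes up region differences. Without the 3 pairs with olfactory bulb markers, calls at PWK 28 were 4216 and genes that changed with week 28, of which 25 were among the 265. That fit also has fewer libraries, and neither this nor olfactory bulb tissue was tested as the cause. The PWK 28 cortical libraries left were those highest in striatal markers. Leaving out 1 pair gave 116 to 300 such genes, fewest without PWK 28 replicates 4 (116) and 3 (128) or PWK 7 replicates 4 (128), 1 (159) and 2 (162). Across all settings, named genes lost their call in 596 single refits, gained one in 13 and reversed in 5, while 7917 refits kept direction and call.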

Other observations

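Beyond the lists, the region differences of the immunoglobulin mu gene Ighm and of Cd4 were looked at after the leading genes Trbc2, Ighg2c and Cd6 had been seen. The mean log2 difference was -2.27 (SE 0.05, largest weekly adjusted p = 2.70e-11) for Ighm and -2.47 (SE 0.17, largest weekly adjusted p = 1.77e-04) for Cd4 in limma's test. The T-cell kinase gene Lck was at 14.8 to 48.2 (median 37.2) normalized counts in hippocampus and 13.3 to 39.4 (median 26.8) in cortex and was not kept.

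Genes called in opposite directions at 2 ages, other than those described above, included the growth factor signalling inhibitors Spry4 (0.55, 0.01 and -0.33 at PWK 7, 14 and 28), Spred2 (0.38, 0.01 and -0.39), Spred3 (0.16, -0.25 and -0.46) and Dusp6 (0.25, -0.20 and -0.63), each higher in hippocampus at PWK 7 and in cortex at PWK 28. Cbln4, a secreted cerebellin, had differences of 0.66, -0.07 and -0.92. The nuclear receptor gene Nr2f1 (-0.42, -0.27 and 0.16) and Gpr17 (-0.27, -0.04 and 0.31), a receptor of immature oligodendrocytes, were higher in cortex at PWK 7 and in hippocampus at PWK 28. All 7 changed with age in limma's F test, and Dusp6, Cbln4, Nr2f1 and Gpr17 were not called without the 3 pairs with olfactory bulb markers. Whether Spry4, Spred2 and Spred3 were called in that fit is not reported here.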
